A study of Mus musculus with 12 samples.

Results

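Negative feedback genes of the ERK pathway were followed in fibroblasts that carried an inducible form of N-VEGF: the phosphatase genes Dusp1, Dusp4, Dusp5 and Dusp6, the Sprouty genes Spry1, Spry2 and Spry4, and the Sprouty-related genes Spred1 and Spred2. They were picked out of the table by name, as known feedback genes, with earlier results of these data known. These 9 genes are 9 of the 54446 Ensembl genes in the deposited count table. All 9 were in the table and all 9 passed the filter on low counts. RNA sequencing compared 4 groups of 3 libraries of mouse embryonic fibroblasts, as the labels call them, which the study's methods describe as NIH3T3 cells, an established mouse fibroblast line. All groups carried a lentiviral construct under a doxycycline-inducible promoter and were used as populations selected with puromycin. The expressed protein was the His-tagged N-terminal portion of L-VEGF, alone (N-VEGF cells) or with the nuclear localization sequence of Cas9 (NLS-N-VEGF cells), and each population was sampled without and with doxycycline (dox). The comparisons ask whether dox, and with it the construct, went with a change of the feedback genes in either population.

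Each group held library 1 and library 2 with the label suffix _120519 and a library 2 with the suffix _290419. The labels do not say what the suffix stands for. In all, 8 libraries had suffix _120519 and 4 had suffix _290419, balanced over the groups. Total counts were 13549331 to 18982127 per library, and 19976 to 22889 genes were detected. The lowest of these was library 1 of N-VEGF cells without dox, which also stood apart on the second principal component. Without it, still 0 of the 9 genes passed the test in any dox or population comparison. Between the suffixes 7 of 9 passed it, where 7200 of all genes did. The construct row held 5 to 12 counts in the 6 libraries without dox and 35 to 268 in the 6 with dox. As counts per 1000000 (CPM), the dox libraries of NLS-N-VEGF cells held 2.57, 2.58 and 10.2, and those of N-VEGF cells 7.56, 8.08 and 17.9. The last value of each is the suffix _290419 library. The rise with dox was 9.89-fold in NLS-N-VEGF cells (edgeR adjusted p = 0.557) and 24.6-fold in N-VEGF cells (edgeR adjusted p = 0.0412). With dox, the construct level was higher in N-VEGF cells than in the NLS-N-VEGF library of the same label. In each population it was highest in the suffix _290419 library. The intervals of the rise overlapped, at 3.62-fold to 27.0-fold in NLS-N-VEGF cells and 9.01-fold to 67.3-fold in N-VEGF cells. A difference in induction between the populations or the suffixes was not tested. Fibroblast markers summed to 11133 to 13898 CPM per library. The summed markers of endothelial cells reached at most 5.01 CPM, of epithelial cells 1.87 CPM and of leukocytes 6.12 CPM, and those of muscle and neural cells lay at 20.99 to 34.0 CPM, nearly all of it from the tubulin gene Tubb3. Kdr, which encodes the main signalling receptor for VEGF, reached at most 0.0714 CPM in any library, below the level of 3 counts (0.158 to 0.221 CPM).

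ERK is the last kinase of the Ras, Raf and MEK cascade, which carries growth factor signals to the nucleus. Active ERK induces the transcripts of its own inhibitors, so their levels are widely read as a sign of ERK output. The dual-specificity phosphatases take the phosphates off MAP kinases themselves. Sprouty and Spred proteins act further up, between the receptors and Raf, and Spred proteins bring the Ras inhibitor neurofibromin to the membrane.

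Upstream sequences of 3 of the phosphatase genes are shown. Dusp5 and Dusp6, which encode phosphatases selective for ERK, moved in opposite directions between the label suffixes, while Dusp1 did not pass the test there. They are the RefSeq bases before the start of transcription in build GRCm38.p6, cut where the gene begins in the deposited table. RefSeq windows were at hand for 7 of the 9 genes, all but Dusp4 and Spry4. Windows of 250 bases before the start were searched on both strands for the cAMP response element (CRE, TGACGTCA), its half-site TGACG, which lies within the CRE, the AP-1 site TGANTCA, the ETS core CCGGAA, the TATA letters TATAAA, the E-box CACGTG and the serum response element known as the CArG box. Capitals mark every match in the stretches printed here.
Dusp5, chr19:53528895-53529108, plus strand: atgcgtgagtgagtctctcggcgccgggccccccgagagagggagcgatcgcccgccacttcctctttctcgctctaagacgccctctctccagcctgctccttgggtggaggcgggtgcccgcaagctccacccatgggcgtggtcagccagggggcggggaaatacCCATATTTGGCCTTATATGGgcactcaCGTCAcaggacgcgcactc
Dusp6, chr10:99262981-99263230, plus strand: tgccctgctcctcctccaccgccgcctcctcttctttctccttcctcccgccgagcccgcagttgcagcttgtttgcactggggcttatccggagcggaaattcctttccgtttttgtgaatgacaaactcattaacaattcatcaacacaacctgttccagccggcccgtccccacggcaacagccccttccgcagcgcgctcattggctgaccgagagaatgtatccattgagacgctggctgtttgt
Dusp1, chr17:26508520-26508722, minus strand: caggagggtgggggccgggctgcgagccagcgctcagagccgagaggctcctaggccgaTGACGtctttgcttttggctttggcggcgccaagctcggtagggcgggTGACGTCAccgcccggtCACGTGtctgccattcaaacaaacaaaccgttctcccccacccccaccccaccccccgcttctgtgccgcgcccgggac

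The Dusp5 window held 2 adjoining CArG boxes, which began 82 and 72 bases before the start, and 1.47% of 32851 windows of the same length held such a box. It was the only one of the 7 genes with it. The Dusp1 window held the full CRE at 143 bases before the start, found in 1.55% of windows, and an E-box at 126 bases, found in 6.02%. The CRE half-site was in the windows of Dusp1, Dusp5 and Spred2 and in 17.8% of all windows. The AP-1 site (6.75% of windows), the ETS core (12%) and TATAAA (12.4%) were in none of the 7. The letters are a description of these windows and say nothing of which factor binds there.

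Levels that follow are normalised CPM, that is counts per 1000000 of the scaled library, and are given within a group in the order library 1 and library 2 of suffix _120519 and then library 2 of suffix _290419. Treated and untreated refer to dox. In the bulk RNA, fewer cells with a transcript and less transcript per cell cannot be told apart.

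Dusp1 (ENSMUSG00000024190, GRCm38 chr17:26505590-26508519, minus strand) encodes a nuclear phosphatase of p38, JNK and ERK. In NLS-N-VEGF cells, the libraries without dox held 26.5, 25.5 and 18.3 CPM and the dox libraries 21.3, 24.2 and 23.3 CPM. In N-VEGF cells, those without dox held 22.9, 22.4 and 19.6 CPM and the dox libraries 25.5, 25.4 and 24.2 CPM. The dox libraries of N-VEGF cells all lay above those without dox, while the NLS-N-VEGF groups overlapped. The dox effect in N-VEGF cells did not pass the test (edgeR adjusted p = 0.99987). The share of all genes with groups separated in this way was not counted. Group means ± SD (n = 3) ran from 21.6 ± 1.79 CPM in untreated to 25.1 ± 0.709 CPM in treated N-VEGF cells. The lowest of the 12 values was the suffix _290419 library of NLS-N-VEGF cells without dox.

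Dusp4 (ENSMUSG00000031530, chr8:34807297-34819894, plus strand) encodes another nuclear MAP kinase phosphatase. Untreated NLS-N-VEGF cells had 13.8, 10.8 and 26.1 CPM, and the treated ones 18.0, 17.7 and 21.7 CPM. Untreated N-VEGF cells had 16.02, 14.05 and 23.5 CPM, and the treated ones 15.2, 15.9 and 29.1 CPM. In every group the suffix _290419 library was the highest, and the groups overlapped. Their means ± SD were 16.9 ± 8.14 CPM (untreated NLS-N-VEGF) to 20.1 ± 7.83 CPM (treated N-VEGF).

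Dusp5 (ENSMUSG00000034765, chr19:53529109-53542431, plus strand) encodes a nuclear phosphatase selective for ERK. Among NLS-N-VEGF libraries it measured 74.4, 70.3 and 83.0 CPM (no dox) and 68.0, 74.4 and 77.1 CPM (dox). Among N-VEGF libraries it measured 66.6, 61.2 and 88.1 CPM (no dox) and 69.7, 70.8 and 85.1 CPM (dox). The suffix _290419 library was again the highest of each group, and the group means lay between 72.0 ± 14.2 and 75.9 ± 6.48 CPM. An antisense gene, AC137853.2, shares 22.1% of the exon bases of Dusp5, and since the library kit does not mark strand, reads there cannot be assigned to either gene.

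Dusp6 (ENSMUSG00000019960, chr10:99263231-99267489, plus strand) encodes a cytoplasmic phosphatase selective for ERK. The NLS-N-VEGF libraries read 108, 114 and 87.7 CPM (no dox) and 102, 107 and 76.9 CPM (dox). The N-VEGF libraries read 116, 102 and 88.2 CPM (no dox) and 99.4, 98.2 and 75.8 CPM (dox). Here the suffix _290419 library was the lowest of each group, and the N-VEGF groups overlapped by the suffix _290419 library without dox. Means ± SD were 103 ± 13.7 CPM untreated and 95.2 ± 16.1 CPM treated in NLS-N-VEGF cells, and 102 ± 13.9 CPM and 91.1 ± 13.3 CPM in N-VEGF cells.

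Spry1 (ENSMUSG00000037211, chr3:37639947-37644598, plus strand) was the Sprouty gene with the fewest counts, at 47 to 116 per library. Untreated NLS-N-VEGF cells gave 6.67, 6.48 and 3.998 CPM, and the treated ones 4.39, 5.30 and 4.14 CPM. For N-VEGF cells these were 5.91, 6.53 and 3.61 CPM untreated and 6.25, 4.94 and 3.15 CPM treated. The suffix _290419 library was the lowest of each group, and group means ran from 4.61 ± 0.608 to 5.71 ± 1.49 CPM. The antisense gene Gm42922 shares 24.4% of the exon bases of Spry1.

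Spry2 (ENSMUSG00000022114, chr14:105891947-105896819, minus strand), which encodes the most studied Sprouty inhibitor of receptor signalling, had 97.5, 93.7 and 109.7 CPM in untreated NLS-N-VEGF cells and 86.3, 90.7 and 97.98 CPM in treated ones. Untreated N-VEGF cells had 91.6, 88.2 and 105 CPM, and the treated ones had 105, 102 and 108 CPM. With dox, the 3 N-VEGF libraries lay above the 3 NLS-N-VEGF libraries, with means ± SD of 104.8 ± 3.09 and 91.7 ± 5.88 CPM. That difference did not pass the test (edgeR adjusted p = 0.99987), and the share of all genes so separated was not counted. Without dox the means were 95.017 ± 9.08 and 100.3 ± 8.33 CPM.

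Spry4 (ENSMUSG00000024427, chr18:38586268-38601268, minus strand), another Sprouty inhibitor of the pathway, lay between 20.8 and 26.7 CPM in all 12 libraries. The NLS-N-VEGF libraries were at 25.5, 26.7 and 23.2 CPM (no dox) and 26.4, 24.4 and 21.9 CPM (dox). Those of N-VEGF cells were at 26.3, 20.8 and 22.2 CPM (no dox) and 24.6, 25.6 and 21.9 CPM (dox). All groups overlapped, with means from 23.1 ± 2.86 to 25.2 ± 1.79 CPM.

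Spred1 (ENSMUSG00000027351, chr2:117121374-117182279, plus strand) had 123, 128 and 108 CPM in untreated NLS-N-VEGF cells and 134, 149 and 115 CPM in treated ones. N-VEGF cells had 122, 129 and 125 CPM untreated and 126, 135 and 104 CPM treated. The groups overlapped, and their means ran from 119.7 ± 10.6 to 133 ± 17.1 CPM. Spred2 (ENSMUSG00000045671, chr11:19924375-20024026, plus strand) had 66.8, 65.6 and 53.8 CPM in untreated NLS-N-VEGF cells and 72.3, 67.7 and 54.5 CPM in treated ones. For N-VEGF cells the values were 75.7, 68.4 and 45.3 CPM untreated and 70.1, 71.8 and 44.2 CPM treated. The suffix _290419 library of Spred2 was the lowest of each group, while the group means lay between 62.0 ± 15.5 and 64.8 ± 9.27 CPM.

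**Figure D1:**
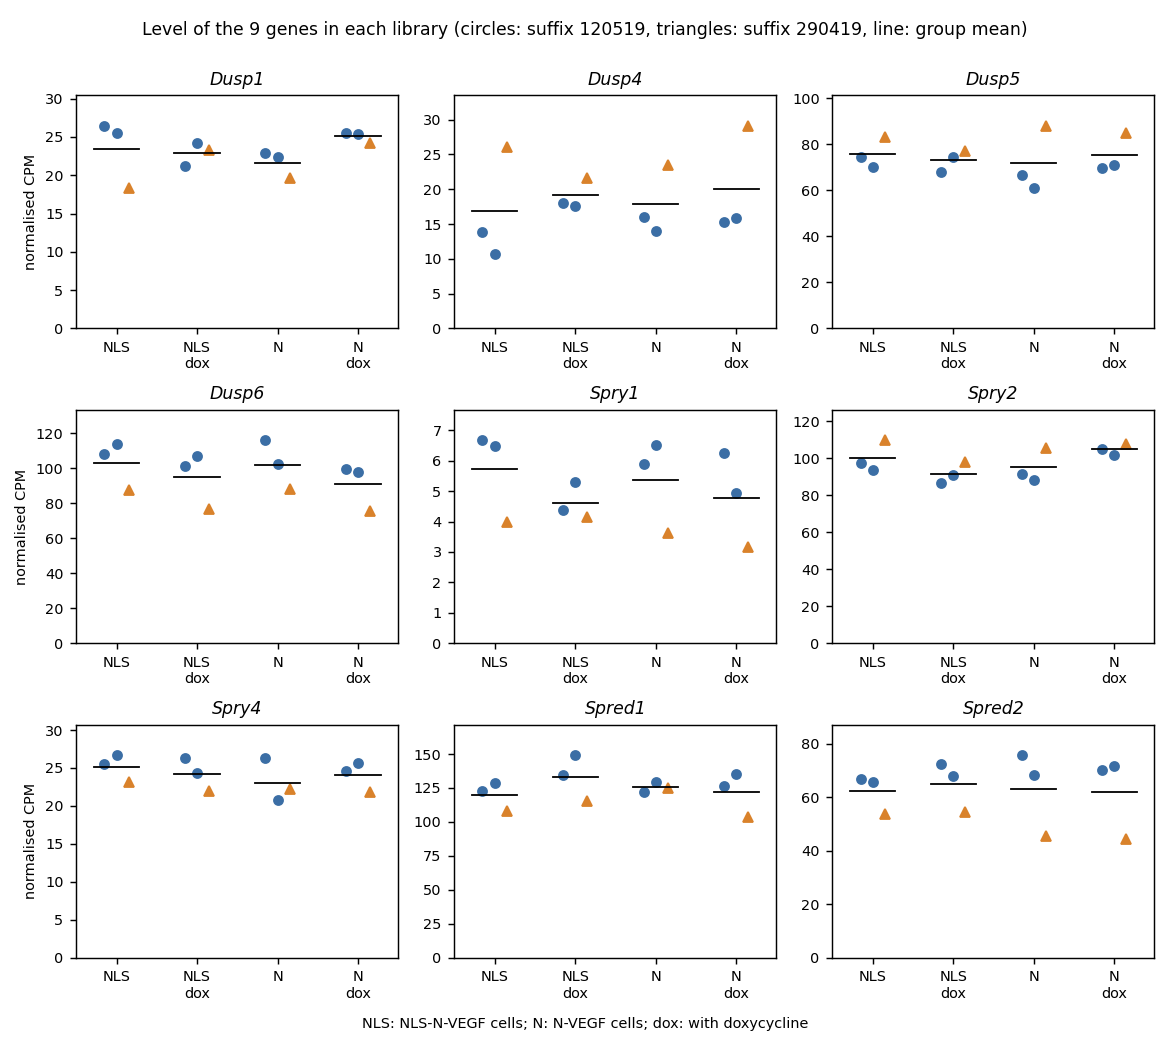
Level of each of the 9 genes (y axis, normalised CPM, starting at 0) in the 12 libraries by group (x axis), with circles for suffix _120519, triangles for suffix _290419 and a line at the mean of each group. The triangles of Dusp4 (21.7 to 29.1 CPM) lie above all its circles (10.8 to 18.0 CPM) and those of Spred2 (44.2 to 54.5 CPM) below all its circles (65.6 to 75.7 CPM), while the group means of Dusp4 lie between 16.9 and 20.1 CPM and those of Spred2 between 62.0 and 64.8 CPM.

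Between genes, levels were compared as normalised CPM per 1000 bases of exon. Spry2 was the most abundant, with a mean of 46.9 over the 12 libraries (41.4 to 52.5), and its range did not reach that of the next gene. Dusp6 (mean 31.3, 24.2 to 37.0) and Dusp5 (mean 30.0, 24.8 to 35.6) followed with overlapping ranges, and Dusp6 was above Dusp5 in 8 of 12 libraries. The exon lengths of Dusp5 and Spry1 include the bases shared with antisense genes, so the order of Dusp5 and Dusp6 is uncertain. The Sprouty-related genes came next, Spred1 at a mean of 18.4 and Spred2 at 13.6 per 1000 bases, and Spred1 was the higher in 12 of 12 libraries. Dusp1 (mean 8.62) was above Dusp4 (mean 6.75) in 9 of 12 libraries, and Dusp4 above Spry4 (mean 5.26) in 10 of 12, so that the order of these neighbours was not the same in each library. Spry1 was the lowest at a mean of 1.76 (1.08 to 2.30), below every other gene in all 12 libraries.

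Dox did not change any of the 9 genes past the threshold of an adjusted p under 0.05 in either population. In NLS-N-VEGF cells the log2 fold changes lay between -0.32 (Spry1) and 0.18 (Dusp4), with a median of -0.05 and 3 of 9 above 0. In N-VEGF cells they lay between -0.16 (Dusp6) and 0.21 (Dusp1), with a median of 0.06 and 5 of 9 above 0. The medians over all 13608 genes tested were 0.00018 and 0.0022. edgeR's quasi-likelihood test called 0 of the 9 in NLS-N-VEGF cells, where it called 0.022% of all genes, and 0 of the 9 in N-VEGF cells, where it called 0.0367%. At an unadjusted p under 0.05 the count was also 0 of 9 in each population, against 2.34% and 1.48% of all genes, and DESeq2 called 0 of 9 as well. The 95% intervals of 7 of the 9 genes, all but Dusp4 and Spry1, lay within a 1.5-fold change either way in each population. For Dusp4 in NLS-N-VEGF cells the interval ran from -0.53 to 0.90 on the log2 scale and for Spry1 from -0.95 to 0.32. Changes of more than 1.5-fold in these genes are thus not excluded by this fit.

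Libraries with the same number and suffix varied together across groups, and so, nearly as closely, did those that shared the suffix only. With this label as a block, still 0 of 9 genes were called in NLS-N-VEGF cells and 0 of 9 in N-VEGF cells, where 0.125% and 0.11% of all genes were called. The block narrowed the intervals in NLS-N-VEGF cells to -0.05 to 0.54 for Dusp4 and to -0.66 to 0.08 for Spry1. Intervals of 8 of 9 genes in NLS-N-VEGF cells and of 9 of 9 in N-VEGF cells then lay within a 1.5-fold change. At an unadjusted p under 0.05 the block gave 0 of 9 in NLS-N-VEGF cells, where 7.27% of all genes reached it. In N-VEGF cells it gave 2 of 9, Dusp6 and Spry2, where 5.4% of all genes reached it. With the block, Dusp6 had a log2 fold change of -0.17 (SE 0.07, adjusted p = 0.888) with dox in N-VEGF cells, and of -0.12 (SE 0.07, adjusted p = 0.779) in NLS-N-VEGF cells. Its level was lower with dox in 6 of 6 same-labelled pairs of libraries. These pairs differed by -0.09, -0.09 and -0.19 on the log2 scale in NLS-N-VEGF cells and by -0.22, -0.06 and -0.22 in N-VEGF cells, and no other of the 9 genes had the same sign in all 6. The share of all genes with 1 sign in all 6 pairs was not counted, so the signs are a description only.

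Within the 8 libraries of suffix _120519 alone, more genes reached an unadjusted p under 0.05. In NLS-N-VEGF cells 3 of 9 did so with dox (Dusp1, Dusp4 and Spry1), against 11.4% of all genes tested there, and in N-VEGF cells 1 of 9 (Spry2), against 10.8%. For the difference of the dox effects it was 3 of 9 (Dusp1, Dusp4 and Spry2) against 6.57%. Between the populations it was 1 of 9 (Spry2) with dox, against 6.81%, and 0 of 9 without dox, against 10.9%. None of the 9 was called after adjustment in these libraries, where 0.814% of all genes were called with dox in NLS-N-VEGF cells, 0.12% in N-VEGF cells, 0.0299% for the difference of the effects, and 0.0822% and 0.0373% between the populations with and without dox.

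**Figure D2:**
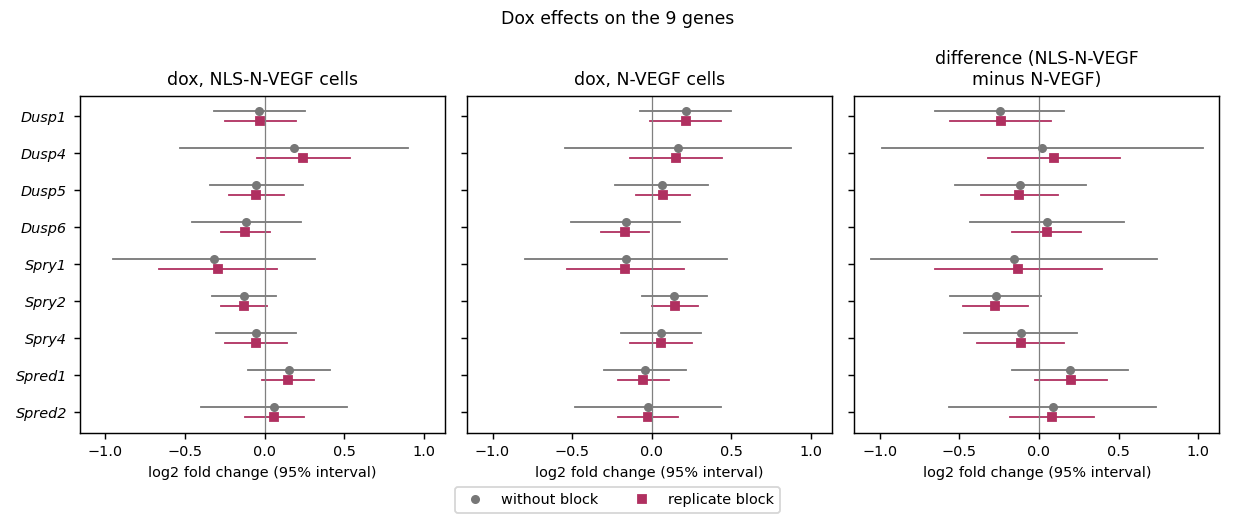
Log2 fold change (x axis, with 95% intervals) of each of the 9 genes (y axis) with dox in NLS-N-VEGF cells, with dox in N-VEGF cells, and NLS-N-VEGF minus N-VEGF for these effects, without a block (grey circles) and with the replicate label as a block (red squares). The intervals of Dusp4 and Spry1 are the widest, and without the block all 27 intervals include 0.

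The dox effects on Spry2 had opposite signs in the populations, and neither passed the test. With dox it was lower in 3 of 3 pairs of NLS-N-VEGF libraries, by -0.17, -0.05 and -0.16 on the log2 scale, and higher in 3 of 3 pairs of N-VEGF libraries, by 0.20, 0.20 and 0.03. The dox effects differed by -0.27 (SE 0.13, adjusted p = 0.99994) without the block, with an interval from -0.56 to 0.02, and -0.27 (SE 0.10, adjusted p = 0.99976) with it. Among treated cells, the log2 difference of NLS-N-VEGF over N-VEGF cells in Spry2 was -0.19 (SE 0.09, adjusted p = 0.99987). None of this passed the threshold, and the share of all genes with such opposite signs was not counted.

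Over the 9 genes, 0 passed the test of the difference of the dox effects and 0% of all genes did so. At an unadjusted p under 0.05 it was 0 of 9 against 0.852% of all genes, and with the block 1 of 9 (Spry2) against 3.41%. Between the treated populations, 0 of 9 were called, with log2 differences from -0.19 (Spry2) to 0.12 (Spred1), where 0% of all genes were called without the block and 0.0147% with it. At an unadjusted p under 0.05 these were 0 of 9 against 1.18%, and 1 of 9 (Spry2) against 4.56% with the block. Without dox the populations differed by -0.09 (Dusp4) to 0.12 (Spry4), and 0 of 9 were called, where 0% of all genes were called with or without the block. At an unadjusted p under 0.05 these were 0 of 9 with and without the block, against 0.603% of all genes without it and 3.67% with it. These comparisons share groups of libraries, so their values are not independent of each other.

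**Figure D3:**
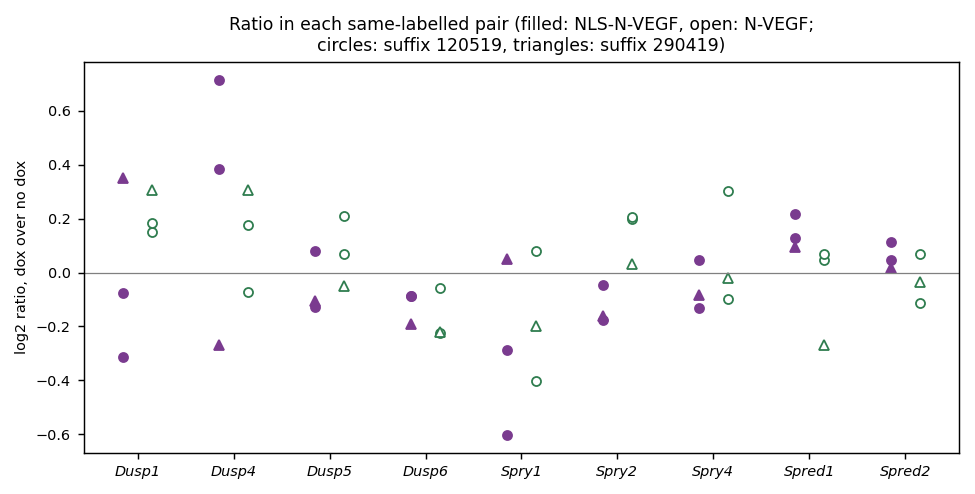
Log2 ratio of normalised CPM (y axis, dox over no dox) in each same-labelled pair of libraries for the 9 genes (x axis), with filled symbols for NLS-N-VEGF cells, open symbols for N-VEGF cells, circles for suffix _120519 and triangles for suffix _290419. All 6 points of Dusp6 lie below 0 (-0.06 to -0.22), and the filled and open points of Spry2 lie on opposite sides of 0.

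By the median absolute log2 fold change of the 9 genes, the suffix of the library labels went with larger differences than dox or population did. It was 0.27 for the suffix, 0.12 and 0.14 with dox in NLS-N-VEGF and N-VEGF cells, and 0.063 and 0.078 between populations with and without dox. Dusp1 and Spry2 were exceptions. Dusp1 changed by 0.21 with dox in N-VEGF cells and by -0.18 between suffixes. Spry2 differed by -0.19 between the treated populations and by 0.16 between suffixes. With the group in the model, 7 of the 9 genes differed between suffix _290419 and suffix _120519, where 45.6% of all genes did (edgeR adjusted p under 0.05), 22.2% higher and 23.5% lower with suffix _290419. DESeq2 also called 7 of 9. The median absolute log2 fold change was 0.27 over the 9 genes and 0.21 over all genes. In 5 of the 9 genes, Dusp4, Dusp5, Dusp6, Spry1 and Spred2, the values of the suffixes did not overlap, as in 28% of all genes. The suffix cannot be told apart here from anything else that differed between these libraries.

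Of the phosphatase genes, Dusp4 and Dusp5 were higher and Dusp6 lower with suffix _290419. Dusp4 rose from a median of 15.6 CPM (10.8 to 18.0, n = 8) with suffix _120519 to 24.8 CPM (21.7 to 29.1, n = 4) with suffix _290419, a log2 fold change of 0.73 (SE 0.10, adjusted p = 3.18e-05). Dusp5 rose from a median of 70.0 CPM (61.2 to 74.4) to 84.1 CPM (77.1 to 88.1), by 0.27 (SE 0.06, adjusted p = 0.00153). Dusp6 fell from a median of 105 CPM (98.2 to 116) to 82.3 CPM (75.8 to 88.2), a log2 fold change of -0.37 (SE 0.05, adjusted p = 3.74e-05). Dusp5 and Dusp6 thus moved apart, which is a statement on these genes and not on phosphatases of either compartment. Dusp1 had a log2 fold change of -0.18 (SE 0.08, adjusted p = 0.0722), with overlapping values of 21.3 to 26.5 CPM and 18.3 to 24.2 CPM.

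Of the Sprouty and Spred genes, Spry2 was higher and Spry1, Spred1 and Spred2 were lower with suffix _290419. Spry1 fell from a median of 6.08 CPM (4.39 to 6.67, n = 8) to 3.81 CPM (3.15 to 4.14, n = 4), a log2 fold change of -0.63 (SE 0.13, adjusted p = 0.00109). Spred2 fell from a median of 69.3 CPM (65.6 to 75.7) to 49.6 CPM (44.2 to 54.5), a log2 fold change of -0.50 (SE 0.07, adjusted p = 2.22e-05). The other changes were smaller and their values overlapped between the suffixes. Spred1 had a log2 fold change of -0.21 (SE 0.06, adjusted p = 0.00828), and Spry2 one of 0.16 (SE 0.05, adjusted p = 0.013). Leaving out single libraries ended both calls. Without library 2 (suffix _290419) of N-VEGF cells with dox, Spred1 had an adjusted p of 0.0533. Without the suffix _290419 library of NLS-N-VEGF or of N-VEGF cells, both without dox, Spry2 had an adjusted p of 0.0772 and 0.0687. Spry4 had a log2 fold change of -0.17 (SE 0.07, adjusted p = 0.0607), which became -0.21 (adjusted p = 0.0118) without library 2 (suffix _120519) of N-VEGF cells without dox.

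**Figure D4:**
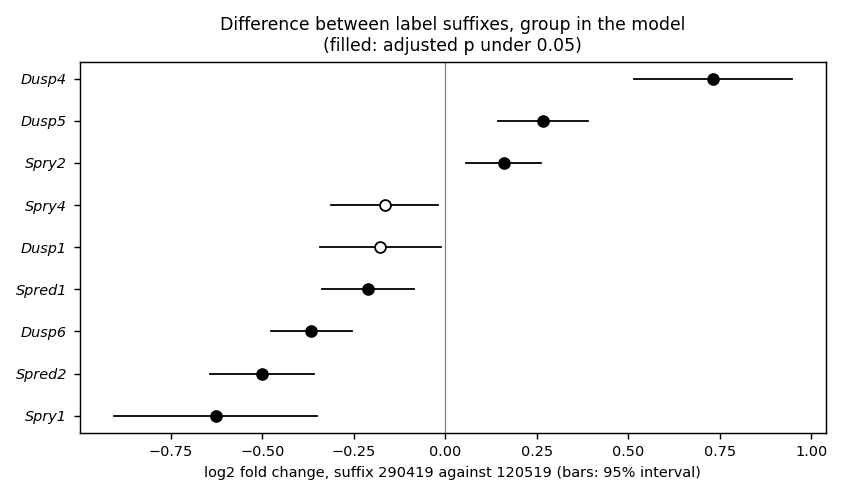
Log2 fold change of the 9 genes between suffix _290419 and suffix _120519 (x axis, bars for the 95% interval), ordered by size (y axis), with filled points for an adjusted p under 0.05. Dusp4 (0.73), Dusp5 (0.27) and Spry2 (0.16) lie above 0, Spry1 (-0.63) and Spred2 (-0.50) are the lowest, and Spry4 and Dusp1 are the open points.

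Some markers of other cell types moved with the suffix too, where 45.6% of all genes did. The 6 leukocyte markers summed to 2.81 to 4.09 CPM with suffix _120519 and to 5.36 to 6.12 CPM with suffix _290419. Only Cd68, a lysosomal gene, was tested of them (log2 fold change 0.83, SE 0.12, adjusted p = 6.06e-05), the defining leukocyte gene Ptprc reached at most 0.291 CPM, and the T cell gene Cd3e was at 0 in all 12. Of 9 fibroblast markers tested, 4 were higher (Lum, Thy1, S100a4 and Vim) and 3 lower (Col3a1, Fn1 and Col5a1) with suffix _290419, and the sum of all 10 listed was 11133 to 13898 CPM with suffix _120519 and 11610 to 13193 CPM with suffix _290419. Lum, a matrix proteoglycan gene, was at most at 0.0628 CPM with suffix _120519, below 3 counts, and at 0.335 to 1.86 CPM with suffix _290419, so no size is given for its change. The collagen gene Col3a1 had a log2 fold change of -1.22. Of 6 endothelial markers 3 were tested and 1 was lower (Tie1, adjusted p = 0.0208), with sums of 2.93 to 5.01 CPM against 3.15 to 4.14 CPM. Tie1 lay at 0.189 to 1.04 CPM with suffix _120519 and at 0.067 to 0.474 CPM with suffix _290419. Its lowest values are below 3 counts, so no size is given for its change either. Of 6 epithelial markers 1 was tested and 0 were called, with sums of 0.88 to 1.87 CPM against 1.21 to 1.57 CPM. Tubb3 was the gene tested of 6 muscle and neural markers and was higher (log2 fold change 0.30, SE 0.08, adjusted p = 0.00652), with sums over the list of 20.99 to 26.0 CPM against 25.003 to 34.0 CPM, while the muscle regulators Myod1 and Myog were at 0 in all 12 libraries. The part of these genes in the differences of the 9 feedback genes was not tested.

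Dox effects were also compared between the suffixes. With a term for dox by suffix shared by both populations, 0 of 9 genes were called and 0% of all genes were. At an unadjusted p under 0.05 it was 1 of 9 (Dusp1) against 6.81% of all genes, and DESeq2 also called 0 of 9. Dusp1 had a difference of 0.34 on the log2 scale (SE 0.13, adjusted p = 0.728). In suffix _290419 it stood at 18.3 and 19.6 CPM without dox and at 23.3 and 24.2 CPM with dox, and in suffix _120519 at 22.4 to 26.5 CPM without and at 21.3 to 25.5 CPM with dox. Dusp4 was higher with dox in both NLS-N-VEGF pairs of suffix _120519, by 0.38 and 0.72, and lower in the pair of suffix _290419, by -0.27 on the log2 scale. Among the libraries of suffix _120519 alone, its dox effect in NLS-N-VEGF cells was 0.53 (SE 0.13, adjusted p = 0.121).

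Other genes of the pathway were read from lists written with earlier results of these data known. Without the block, 0 genes of any of these lists were called in the dox or population comparisons. With the block, Egr1, an immediate early transcription factor gene induced by ERK, was the only one, with a log2 fold change of 1.17 (SE 0.20, adjusted p = 0.0241) with dox in N-VEGF cells, against 1.21 (SE 0.29, adjusted p = 0.9999) without the block. Egr1 had 69.8, 112 and 101 CPM in untreated N-VEGF cells and 258, 245 and 148 CPM in treated ones, so that these groups did not overlap. The share of all genes with groups so separated was not counted. Without library 1 of N-VEGF cells without dox, the blocked log2 fold change was 0.91 (SE 0.18, adjusted p = 0.0444). In untreated NLS-N-VEGF cells Egr1 had 241, 239 and 113 CPM and in treated ones 172, 234 and 193 CPM, and the difference of the dox effects was not called (adjusted p = 0.99976 with the block). The 9 feedback genes were not called in the same comparison.

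Between the suffixes, the relatives of the 9 genes were split in direction as well, where 22.2% of all genes were higher and 23.5% lower. Of 6 other MAP kinase phosphatase genes, 2 were higher and 2 lower with suffix _290419. They were Dusp9 (log2 fold change 0.56, SE 0.09, adjusted p = 0.000162) and Dusp10 on the higher side, and Dusp16 (-0.56, SE 0.06, adjusted p = 4.43e-06) and Dusp7 (-0.25, SE 0.06, adjusted p = 0.00373) on the lower side. Spred3, the remaining Spred gene, was lower by a log2 fold change of -0.30 (SE 0.09, adjusted p = 0.0173). Spry3 was not analysed here.

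Of 13 genes of the cascade itself, from Ras to the ERK substrate kinases, 3 were higher and 2 lower. Over all genes, 22.2% were higher and 23.5% lower. Araf, a Raf kinase gene, had a log2 fold change of 0.53 (SE 0.08, adjusted p = 5.21e-05) and Lamtor3, a MEK scaffold gene, one of 0.38 (SE 0.06, adjusted p = 7.72e-05). Rps6ka3, which encodes a kinase activated by ERK, had one of -0.38 (SE 0.07, adjusted p = 0.00036). Hras (0.25) and Mapk3, the gene of ERK1 (-0.24), were the other genes called.

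Of 16 genes that act upstream of Ras, 0 were higher and 10 lower with suffix _290419, where 22.2% of all genes were higher and 23.5% lower. The other 6 did not pass the test. The median log2 fold change of the 16 was -0.23, against 0.0054 over all genes, and the highest was 0.078. The growth factor receptor genes Egfr and Pdgfra had log2 fold changes of -1.35 (SE 0.14, adjusted p = 1.57e-06) and -1.32 (SE 0.09, adjusted p = 3.31e-08). Pdgfra, the more abundant of these, had a median of 358 CPM (276 to 428) with suffix _120519 and 155 CPM (92.9 to 168) with suffix _290419. Frs2, the adaptor of fibroblast growth factor receptors, had a log2 fold change of -0.97 (SE 0.08, adjusted p = 3.22e-07). Nf1, the gene of the Ras inhibitor neurofibromin, the partner of the Spred proteins, was among the 10 as well, at -0.55 (SE 0.06, adjusted p = 4.52e-06). The list thus holds genes that act for Ras and genes that act against it, so its count is not a measure of input to Ras.

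Other transcripts known to be induced by ERK were split. Of 20, 8 were higher and 5 lower with suffix _290419, with a median of 0.11. Over all genes, 22.2% were higher and 23.5% lower, the shares to set beside each list given here. Epha4 had the largest change, 2.04 (SE 0.32, adjusted p = 8.88e-05), at levels of 0.12 to 0.59 CPM against 0.86 to 1.94 CPM. Its lowest value with suffix _120519 is below 3 counts, so the size of the change is uncertain. The ETS factor genes Etv5 and Etv1, often induced together with Dusp6 and the Sprouty genes, had values of -0.45 (SE 0.07, adjusted p = 5.16e-05) and -0.43 (SE 0.07, adjusted p = 0.000134), and Myc, Vgf and Mafk were the other genes that fell. Etv4, another ETS factor gene, had medians of 82.8 CPM with suffix _120519 and 84.6 CPM with suffix _290419. Medians were higher with suffix _290419 for Fosl1 (97.7 to 123 CPM), Plaur (101 to 117 CPM) and Epha2 (113 to 136 CPM). Of 12 serum-induced immediate early genes 4 were higher (Egr3, Nr4a1, Fosb and Zfp36) and 6 lower, led by Atf3 (-1.61, SE 0.24, adjusted p = 5.21e-05), Egr2 (-0.84, SE 0.26, adjusted p = 0.0142) and Ier2 (-0.81, SE 0.07, adjusted p = 3.39e-07). Of 10 proliferation genes 3 were higher (Rrm2, Ccnb1 and Cdk1) and 2 lower, Mcm2 and Mki67 (-0.33, SE 0.07, adjusted p = 0.001).

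**Figure D5:**
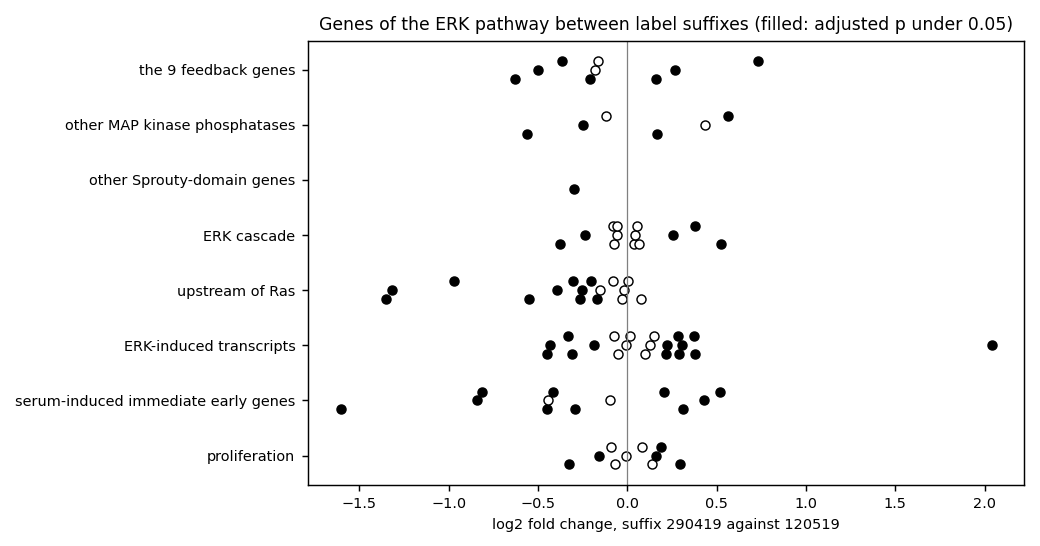
Log2 fold change between suffix _290419 and suffix _120519 (x axis) of each gene tested in 8 lists of the ERK pathway (y axis), with filled points for an adjusted p under 0.05 and points offset vertically only to separate them. The filled points of the list upstream of Ras all lie below 0 (10 of 16 genes), while the other lists with more than 1 gene have filled points on both sides.

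The 9 genes did not vary as a unit from library to library. After centring on the mean of each suffix, 21 of the 36 pairs of genes had a Pearson r above 0 over the 12 libraries, and 18 of 36 did so before centring. The extremes after centring were Dusp4 with Spry1 at -0.74 and Dusp5 with Spry4 at 0.51. These correlations are a description over libraries that share depth and scaling. The genes whose centred log2 levels (pseudocount 2 CPM) were most like the mean profile of the 9, over 12 libraries and 12049 genes, were Dhtkd1 (r = 0.84), Mrps36 (0.80), Dhx9 (0.79), Clns1a (0.79), Tsnax (0.78) and Polr2h (0.78).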

How the data were processed

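The authors prepared TruSeq v2 libraries from total RNA, trimmed single reads with Trim Galore and cutadapt 1.10, aligned them to GRCm38 with TopHat2 2.1.0 and Bowtie2 2.2.6 and counted reads per gene with HTSeq 0.6.1. The values deposited by the authors are raw counts with no normalization. The strand option of the counting is not given in the sources used here.

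Counts were tested with edgeR 4.0.16 (R 4.3.3). filterByExpr kept 13608 genes, libraries were scaled by TMM, and the quasi-likelihood fit took in all 12 libraries, each group with its own mean. Calls needed a Benjamini-Hochberg adjusted p under 0.05 over all genes, two-sided. Suffix comparisons added a suffix term, and a dox by suffix term where named. Levels per 1000 bases used the union of GENCODE exons. Scripts were tested on simulated data. Floors of 3 counts per library were 0.158 to 0.221 CPM and cover counting error only. The labels do not say whether libraries came from separate cultures, so p-values may measure technical spread. No replicates agreed within sampling noise (chi-square per degree of freedom 1.68 to 67.9).

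Number and suffix together are the replicate label. Deviations from group means correlated by 0.40 to 0.83 in all 18 same-labelled pairs (mean 0.59, 12058 genes), so the labels were taken to pair libraries. In 12 pairs that shared the suffix but not the number the correlation was 0.14 to 0.68 (mean 0.47), and in 24 pairs of different suffix -0.76 to -0.35, so most of the shared variation went with the suffix. The biological coefficient of variation was 15.5% without a block, 7.86% with the label and 7.93% with the suffix as the block.

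The 9 genes and all lists were chosen with earlier results of these data known. The 9 genes were always named. Other list genes were named if called in a dox or population comparison, or as up to 3 per list with the largest called suffix change. Other genes given by name were chosen after their values were seen. Genes most like the 9 were the 6 of those averaging 1 CPM or more with the highest Pearson r with the mean of the standardised profiles, centred within suffix.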

Additional observations from a re-analysis of the deposited data

Results flagged for a closer look

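The level of Spry4 in library 2 (suffix _120519) of N-VEGF cells without dox, 20.8 CPM, stood apart from the other 7 libraries of that suffix, which lay between 24.4 and 26.7 CPM. Its gap to the nearest library was 0.605 of the range. In 18 sets of a gene and a suffix, chance would flag about 1 in 20. The dox effect on Spry2 had opposite signs in every same-labelled pair of the populations, and the tested difference of the effects was -0.271 on the log2 scale, with an edgeR adjusted p of 0.99994, so it did not pass the threshold.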

How the results depend on the processing

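The number of the 9 genes called was 0 in all 5 dox and population comparisons, under each alternative run for them. In the dox by suffix comparison it was also 0 under each alternative run there. DESeq2 1.42.0, RLE scaling, no filter, at least 10 counts in every library and leaving out each library (0 to 0) were run for all of these. The replicate block (0 of 9), the suffix block and suffix _120519 alone were run for the dox and population comparisons only. The library number as an added term was run for the suffix and dox by suffix comparisons only. An alternative added after the data were seen, the replicate block without library 1 of N-VEGF cells without dox, gave 0 of 9 too. The block, in which libraries are paired by label, changed no call of the 9 genes. Between the suffixes it was 7 of 9 under each of these alternatives that could be run there, and 6 to 8 when single libraries were left out. With no filter, Dusp1 was called (-0.21, adjusted p = 0.0448) and Spry2 was not (0.13, adjusted p = 0.187). Dusp1 was also called without the NLS-N-VEGF dox library 1 of suffix _120519 (adjusted p = 0.0329) or library 2 of suffix _290419 (adjusted p = 0.0225). The cause was not tested. Of 1206 single-gene values, 1128 kept direction and call, 70 changed sign without being called in either fit, 4 gained and 4 lost the call, and 0 called values reversed.

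Counts over all genes moved more. Genes called with dox in NLS-N-VEGF cells were 3, or 3 to 109 (suffix _120519 alone), 17 with the block, 58 in the added alternative and 0 to 3 with single libraries left out. In N-VEGF cells they were 5, or 4 to 36 (no filter), 15 with the block, 31 in the added alternative and 1 to 7 with single libraries left out. The suffix comparison called 4909 to 6405, and 4929 to 7200 with single libraries left out.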
